A study of Mus musculus with 24 samples.

Results

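Axon guidance ligands and receptors were followed in cerebellar RNA of neonatal C57BL/6J mice given ethanol or vehicle. The members were taken by gene name: the semaphorins of classes 3 to 7, the plexins, the neuropilins Nrp1 and Nrp2, Robo1 to Robo3, Slit1 to Slit3, Ntn1 to Ntn5, Dcc, Unc5a to Unc5d, the EphA and EphB receptors and the ephrins. This gave 68 of the 55416 gene rows, 35 ligands and 33 receptors, and 67 of them had enough counts to be tested, out of 17736 genes tested in all. Ntn5 did not, with 0 to 16 counts per animal. Each library came from 1 animal. The Ethanol animals (n = 12) received ethanol in intralipid by gavage from postnatal day P4, with the last dose on P4 or P5. The Vehicle animals (n = 12) received intralipid with water in its place. Both sexes were used, and tissue was taken from perfused animals at P5 or P6, a day after the last dose. The labels give the treatment of each animal but not its age, sex or litter, so all 24 animals were compared by treatment. The labels call the tissue brain and the series' design text calls it cerebellum.

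Axon guidance genes encode signals that growing axons and migrating neurons read as attraction or repulsion. Secreted class 3 semaphorins bind neuropilins, which signal through plexins, and most membrane semaphorins bind plexins directly. Netrins bind Dcc and the Unc5 receptors, Slits bind Robos, and membrane-tethered ephrins bind Eph receptor tyrosine kinases and can also signal back into the cell that carries them. In the postnatal cerebellum granule cell precursors divide at the surface and their daughters migrate inward along Bergmann glia past the Purkinje cells, and several of these families act on that migration.

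Libraries held 26982510 to 38804909 counts in Ethanol animals and 29039869 to 38696572 in Vehicle animals. Taken 4 at a time in the order of their animal numbers, which have gaps, the animals form 6 sets of 2 Ethanol and 2 Vehicle animals each, called runs here. The study's methods describe litters that each gave a male and a female of either treatment, which is the same composition. Which animals were littermates is not given in the labels or the methods, and runs served only as a technical grouping. In 4 libraries (Ethanol X4568 and X4766, Vehicle X4761 and X4770) Ttr, a marker of the choroid plexus, stood at 1.15 to 3.57 CPM (a gene's count relative to its library's total, scaled by TMM factors), against 322 to 5049 CPM in the other 20. Markers of cerebellar cells were present in every library, with summed levels of 11 Purkinje cell markers at 1701 to 2005 CPM in Ethanol and 1817 to 2204 CPM in Vehicle animals. Genes of several marker lists were called, that is, had an edgeR adjusted p under 0.05. Of all 17736 genes tested, 9.07% were called higher and 5.80% lower, so a few calls in a short list do not show that the list moved. Of 14 endothelial markers, 6 fell and 1 rose, and their summed level had a lowest, median and highest value of 467, 501 and 534 CPM in Ethanol against 530, 567 and 600.0 CPM in Vehicle animals. Of 10 pericyte and smooth muscle markers 3 fell, of 11 Purkinje cell markers 4 fell, and of 11 Bergmann glia and astrocyte markers 5 rose and 2 fell. Of 14 microglia markers 6 rose and 2 fell, and of 8 markers of oligodendrocyte precursors 2 rose. Of 8 granule precursor markers 2 rose and 1 fell, of 10 granule neuron markers 2 rose, of 8 interneuron and progenitor markers 2 rose, and of 12 meningeal fibroblast markers 3 fell. The median summed level of the granule precursor markers was 1550 CPM in Ethanol and 1553.5 CPM in Vehicle animals. For the granule neuron markers it was 3292 and 3113 CPM, and for the oligodendrocyte precursor markers 579 and 524 CPM. The pericyte and smooth muscle markers had 396 and 436 CPM, with 11 Ethanol animals below the lowest Vehicle animal. Purkinje cell markers had 1797 and 1953 CPM, with 7 below it. Bergmann glia and astrocyte markers had 4751 and 4275 CPM, with 6 Ethanol animals above the highest Vehicle animal. Microglia markers had 288 and 239 CPM, with 3 above it. Of the 8 midbrain and brainstem markers tested 1 rose, and no choroid plexus, ependymal or myelinating oligodendrocyte marker was called by edgeR or had an unadjusted p under 0.05. In bulk tissue, fewer cells of a type and less RNA per cell cannot be told apart, and the part of these marker changes in the results on guidance genes was not tested.

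Ethanol animals differed from Vehicle animals in few guidance genes and by small amounts. At an adjusted p under 0.05 in edgeR's quasi-likelihood test, 1 of the 67 members rose, the plexin Plxnc1, and 3 fell, the ligands Sema5b, Efnb1 and Ntn3. Over all genes tested, 9.07% were called higher and 5.80% lower, so the 1.49% of members called higher and 4.48% called lower lay below that background. The share called lower lay above it in other fits: 8.96% of members against 7.68% of all genes with the runs as a block, and 5.97% against 3.44% without the 4 libraries low in Ttr. With upper-quartile scaling the calls over all genes were 1373 higher and 1396 lower, beside 1608 and 1028 with the scaling used here. At an unadjusted p under 0.05 there were 14 members, 20.9% against 28.4% of all genes. The median log2 fold change of the members was −0.02 beside −0.01 for all genes, and the median absolute log2 fold change was 0.06 beside 0.07, with median standard errors of 0.05 for both. None of the 33 receptors fell and none of the 34 ligands tested rose by this test, where 5.80% of all genes fell and 9.07% rose. The median log2 fold change was −0.0155 for the receptors and −0.0150 for the ligands. By DESeq2 the ligand Sema3d was also called higher and the receptors Epha4 and Ephb2 lower. At an unadjusted p under 0.05 in edgeR, 6 receptors and 8 ligands differed in either direction. No ephrin-A ligand, Slit, Robo, neuropilin or netrin receptor had an unadjusted p under 0.05 in edgeR. The number called rested in part on single animals. Without Vehicle X4768, 5 members were called higher and 5 lower. Without Ethanol X4673 or Ethanol X4760, 3 and 2 were called higher, and without any one of Ethanol X4674, X4681 and X4683 and Vehicle X4695, X4761 and X4770, 5 were called lower. The share of all genes called in these fits is not given here, so these counts cannot be set against a background.

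**Figure D1:**
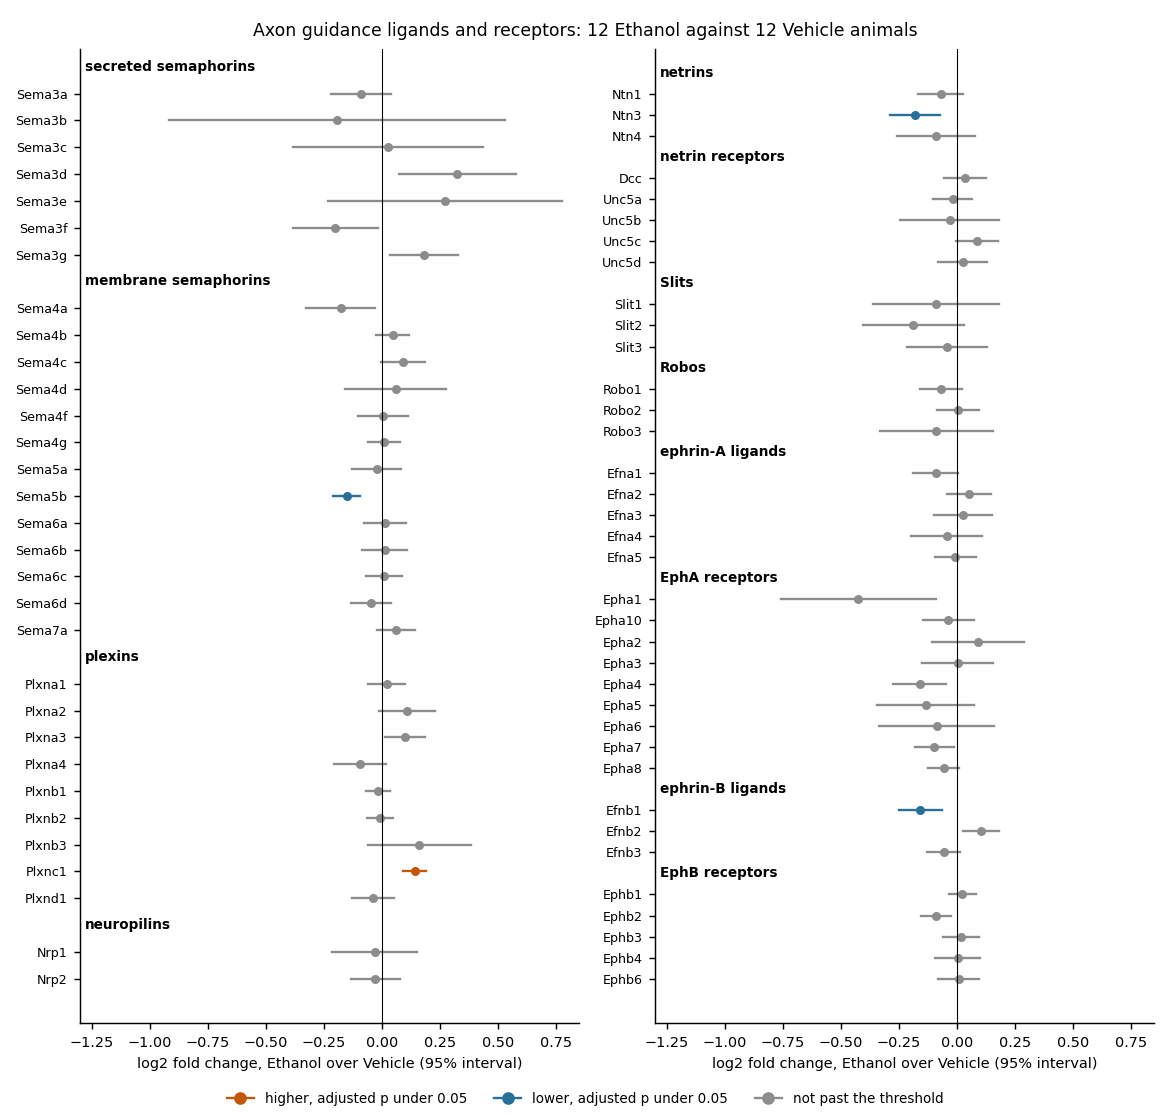
Log2 fold change (x axis, Ethanol over Vehicle) of each of the 67 members tested, by family, with its 95% interval. Plxnc1 lies right of 0 and Sema5b, Efnb1 and Ntn3 lie left of it past the adjusted threshold, while most other points sit within 0.2 of 0 and the widest intervals belong to the secreted semaphorins.

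The plot of fold changes also shows how tightly the members without a call were measured. For 27 of these 63 members the 95% interval lay inside ±0.15 on the log2 scale, and for 49 it lay inside ±0.3. The interval of Plxnb2, −0.07 to 0.05, stayed closest to 0. The widest were those of Sema3b, −0.92 to 0.53, Sema3e, −0.23 to 0.78, and Sema3c, −0.38 to 0.44.

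Among the ligands, the highest levels per length were those of the membrane semaphorins Sema7a and Sema6a. Per kilobase of exon, Sema7a, a membrane-anchored ligand, averaged 61.1 CPM in Ethanol and 58.6 CPM in Vehicle animals, and Sema6a averaged 38.3 CPM per kilobase in Ethanol and 38.0 in Vehicle animals. Sema4g followed with 21.9 CPM per kilobase in Ethanol and 21.8 in Vehicle animals. The secreted semaphorins were lower, with no member above 3.21 CPM per kilobase in either group.

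Sema5b, a transmembrane semaphorin with thrombospondin repeats that can repel axons, was the ligand with the smallest adjusted p. Its lowest, median and highest levels were 47.6, 50.5 and 52.2 CPM in Ethanol animals, against 51.0, 56.0 and 62.1 CPM in Vehicle animals. All 12 Ethanol animals lay below the Vehicle median and 8 lay below the lowest Vehicle animal, and the groups overlapped only between 51.0 and 52.2 CPM. Sema5b fell by 0.15 on the log2 scale (SE 0.03, edgeR adjusted p = 0.000762), a change of −9.97%. The Ethanol animals were also closer to each other, with a coefficient of variation of 2.73% beside 6.0% in Vehicle animals. It was lower in Ethanol animals in 6 of 6 runs, and it stayed below the adjusted threshold in 38 of 38 alternative analyses, with adjusted p between 2.16e-05 and 0.00674. Its close relative Sema5a, an attractant or repellent depending on context, had a log2 fold change of −0.02 (SE 0.05, edgeR adjusted p = 0.821).

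The other 12 membrane semaphorins were not called, and their log2 fold changes ran from −0.18 (Sema4a, edgeR adjusted p = 0.0947) to 0.09 (Sema4c, edgeR adjusted p = 0.188). Sema4a was called without Ethanol X4765 (adjusted p = 0.0381). Sema6a, a ligand of Plxna2 and Plxna4 that acts on granule cell migration, had 302, 335 and 366 CPM as lowest, median and highest in Ethanol animals, against 298, 324 and 387 CPM in Vehicle animals. The Ethanol values lay inside the Vehicle range throughout. Its log2 fold change was 0.01 (SE 0.04, edgeR adjusted p = 0.895).

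None of the 7 secreted semaphorins was called, although 3 of them had an unadjusted p under 0.05. Sema3a, the classic repellent that acts through Nrp1, had 25.1, 29.8 and 38.0 CPM in Ethanol animals, against 29.0, 33.0 and 41.4 CPM in Vehicle animals. The median was exceeded by 4 Ethanol animals, and the ranges overlapped widely. Its log2 fold change was −0.09 (SE 0.06, edgeR adjusted p = 0.371). Sema3d, a secreted semaphorin that also acts on vessels and heart development, had the smallest p of the class. It had 10.8, 16.8 and 23.8 CPM in Ethanol animals, against 10.2, 13.7 and 20.5 CPM in Vehicle animals. In all, 10 Ethanol animals lay above the Vehicle median and 4 above the highest Vehicle animal. Its log2 fold change was 0.33 (SE 0.12, edgeR adjusted p = 0.0742), higher in 6 of 6 runs, and it was called in 5 of 38 alternatives, among them those without Ethanol X4673 (adjusted p = 0.0252) and without Vehicle X4768 (adjusted p = 0.0226). Sema3g had a log2 fold change of 0.18 (SE 0.07, edgeR adjusted p = 0.0830) and Sema3f one of −0.20 (SE 0.09, edgeR adjusted p = 0.138), both singled out after their values were seen. Sema3g was called without Ethanol X4760 (adjusted p = 0.0358) or Vehicle X4768 (adjusted p = 0.0396), and Sema3f without Vehicle X4768 (adjusted p = 0.0402).

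Ntn3, a netrin expressed at a low level, was the netrin that fell. It had 5.83, 6.11 and 7.07 CPM in Ethanol animals, against 6.05, 7.003 and 8.33 CPM in Vehicle animals. Only 1 Ethanol animal lay above the Vehicle median and 4 lay below the lowest Vehicle animal, and the ranges overlapped between 6.05 and 7.07 CPM. Ntn3 fell by 0.18 on the log2 scale (SE 0.05, edgeR adjusted p = 0.0211), on 159 to 282 counts per animal, and was lower in 6 of 6 runs. The call was lost without run 1 (adjusted p = 0.105), run 3 (0.0671), run 5 (0.0511) or run 6 (0.0512) and with no filter on low counts (0.0779), and it held with any single animal left out. In the GENCODE annotation of the older build GRCm38, Ntn3 shares 89 exon bases on the same strand with Tbc1d24, whose log2 fold change was 0.00 (edgeR adjusted p = 0.988), so reads of this stretch could be assigned to either gene. Ntn1, the secreted attractant of commissural axons, was far higher per length, at 13.7 CPM per kilobase in Ethanol and 14.4 in Vehicle animals, while Ntn3 stood at 1.23 CPM per kilobase in Ethanol and 1.40 in Vehicle animals.

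Ntn1 had 74.7, 84.7 and 100.2 CPM in Ethanol animals, against 75.7, 91.9 and 103 CPM in Vehicle animals. Its ranges nearly coincided, with 2 Ethanol animals above the Vehicle median. The log2 fold change was −0.07 (SE 0.05, edgeR adjusted p = 0.357). Ntn4, a netrin that also occurs in basement membranes, had one of −0.09 (SE 0.08, edgeR adjusted p = 0.517). Ntn5 ranged between 0.0277 and 0.325 CPM in Ethanol and between 0 and 0.492 CPM in Vehicle animals, and 23.4% of its annotated exon bases lie opposite exons of Sec1.

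Efnb1, a transmembrane ephrin that binds EphB receptors, fell as well. It had 23.99, 28.8 and 31.3 CPM in Ethanol animals, against 26.4, 32.6 and 35.0 CPM in Vehicle animals. All 12 Ethanol animals lay below the Vehicle median, but only 2 lay below the lowest Vehicle animal. Efnb1 fell by 0.16 on the log2 scale (SE 0.04, edgeR adjusted p = 0.0165), a change of −10.4%, and was lower in 6 of 6 runs. The call held with any single animal left out and was lost without run 1 (adjusted p = 0.114), run 2 (0.0537) or run 4 (0.0977).

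Efnb2, a sister ligand that also marks arterial endothelium, did not pass the threshold. It had 48.9, 58.1 and 62.2 CPM in Ethanol animals, against 49.2, 52.6 and 59.1 CPM in Vehicle animals. The Vehicle median was exceeded by 9 Ethanol animals and the highest Vehicle animal by 4. Its log2 fold change was 0.10 (SE 0.04, edgeR adjusted p = 0.0664), and it was called without Ethanol X4673 (adjusted p = 0.0220). Efnb3, the third ligand of the class, had a log2 fold change of −0.06 (SE 0.03, edgeR adjusted p = 0.290). Efnb2 and Efnb1 lie in opposite directions from 0, but whether their changes differ from each other was not tested.

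None of the 5 glycolipid-anchored ephrin-A ligands was called. Efna1 had the smallest p among them, with a log2 fold change of −0.09 (SE 0.05, edgeR adjusted p = 0.208), and all 12 Ethanol animals lay below its Vehicle median. The others ran from −0.04 (Efna4) to 0.05 (Efna2). The Slits were not called either. Slit2, the repellent ligand of Robo1 and Robo2, had 15.4, 19.4 and 22.9 CPM in Ethanol animals, against 12.2, 22.7 and 26.95 CPM in Vehicle animals. The Vehicle median was exceeded by 2 Ethanol animals, and the lowest value of all belonged to a Vehicle animal. This gave a log2 fold change of −0.19 (SE 0.10, edgeR adjusted p = 0.247). It was called lower without Vehicle X4770 (adjusted p = 0.0431) and without the 4 libraries low in Ttr (log2 fold change −0.23, adjusted p = 0.0384).

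Plxnc1, the receptor of Sema7a, was the member with the smallest p and the receptor that rose. It had 85.9, 95.8 and 102 CPM in Ethanol animals, against 79.5, 87.3 and 88.8 CPM in Vehicle animals. All but 1 of the 12 Ethanol animals exceeded the highest Vehicle animal, and the remaining one, Ethanol X4673, lay within the Vehicle range. Plxnc1 was higher by 0.14 on the log2 scale (SE 0.03, edgeR adjusted p = 0.000395), a change of 10.3%, and higher in 6 of 6 runs, with within-run differences between 0.03 and 0.20. It was called in 38 of 38 alternatives, with adjusted p between 3.63e-06 and 0.00419. Its ligand Sema7a had a log2 fold change of 0.06 (SE 0.04, edgeR adjusted p = 0.335), with 3 Ethanol animals above the highest Vehicle animal and 1 below the lowest.

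**Figure D2:**
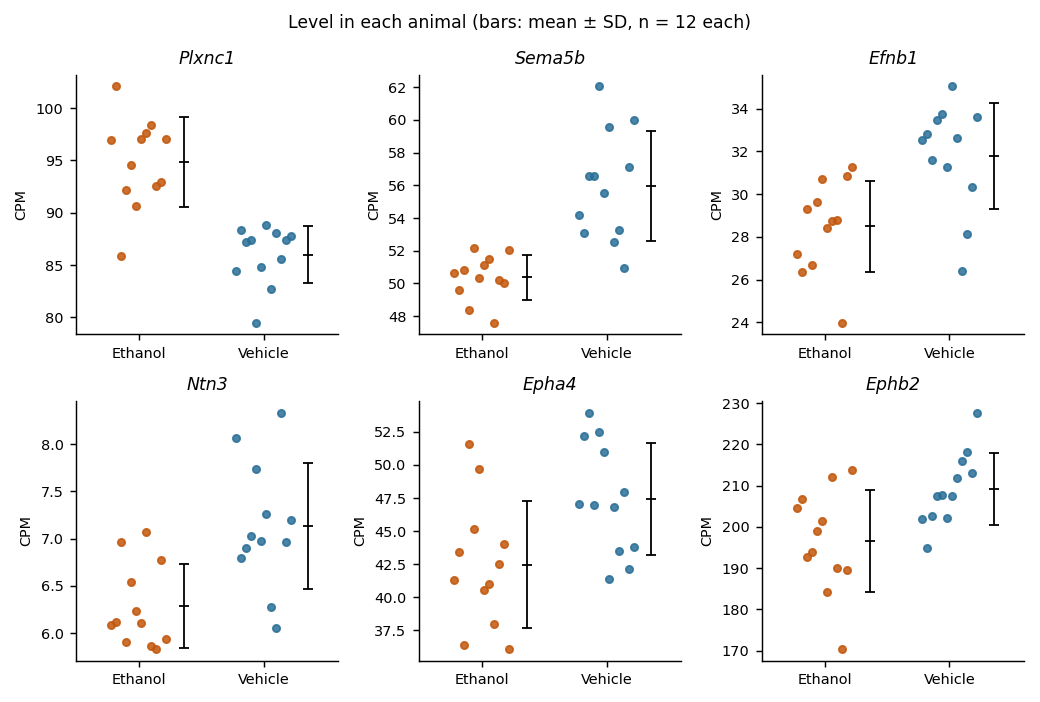
Level in CPM (y axis) of 6 guidance genes in each of the 12 Ethanol and 12 Vehicle animals, with the mean and SD of each group. For Plxnc1 11 Ethanol points lie above every Vehicle point and for Sema5b 8 lie below every Vehicle point, while the groups overlap more widely for Efnb1, Ntn3, Epha4 and Ephb2.

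The remaining 8 plexins were not called. Plxnb2, a semaphorin class 4 receptor needed for the ordered proliferation and migration of granule cell precursors in mice, was the most abundant member per length, at 90.8 CPM per kilobase in Ethanol and 91.3 in Vehicle animals. Its levels were 626, 709 and 744 CPM in Ethanol animals, against 661, 708 and 750.4 CPM in Vehicle animals. The medians were nearly equal, and 2 Ethanol animals lay below the lowest Vehicle animal. The log2 fold change was −0.01 (SE 0.03, edgeR adjusted p = 0.875).

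Plxna2, the receptor through which Sema6a acts on granule cell migration, had 94.7, 107 and 119.8 CPM in Ethanol animals, against 86.8, 98.4 and 129 CPM in Vehicle animals. The Vehicle median was exceeded by 10 Ethanol animals, while the highest and the lowest values were both in Vehicle animals. The log2 fold change was 0.11 (SE 0.06, edgeR adjusted p = 0.223), and it was called without Vehicle X4768 (adjusted p = 0.0409). Plxna3, a receptor for class 3 semaphorins together with Nrp2, had a log2 fold change of 0.10 (SE 0.04, edgeR adjusted p = 0.110) and was likewise called without Vehicle X4768 (adjusted p = 0.0156).

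Both neuropilins were near 0. Nrp1, which also serves as a receptor for vascular endothelial growth factor on endothelium, had 13.0, 18.1 and 23.4 CPM in Ethanol animals, against 14.1, 18.9 and 23.2 CPM in Vehicle animals. The ranges were almost the same. It had a log2 fold change of −0.03 (SE 0.09, edgeR adjusted p = 0.859), and that of Nrp2 was −0.03 (SE 0.05, edgeR adjusted p = 0.778).

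The netrin receptors were not called. Unc5c, whose loss in mice displaces granule cells and Purkinje cells beyond the border of the cerebellum, had 196, 231 and 246 CPM in Ethanol animals, against 184, 217 and 249.8 CPM in Vehicle animals. The Vehicle range held every Ethanol value, and 10 Ethanol animals lay above the Vehicle median. This gave a log2 fold change of 0.09 (SE 0.04, edgeR adjusted p = 0.214). In 1 of 38 alternatives Unc5c was called higher, without run 6 (log2 fold change 0.13, edgeR adjusted p = 0.0489). Dcc, the receptor through which Ntn1 attracts axons, had 116, 139 and 159 CPM in Ethanol animals, against 121, 135 and 153 CPM in Vehicle animals. The log2 fold change was 0.03 (SE 0.04, edgeR adjusted p = 0.669), with the 95% interval from −0.06 to 0.13.

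The Robos, receptors of the Slits, were not called. Robo1 had 42.0, 51.3 and 59.6 CPM in Ethanol animals, against 50.4, 53.6 and 59.9 CPM in Vehicle animals. Of the Ethanol animals, 5 lay below the lowest Vehicle animal, and the highest values of the groups were alike. It had a log2 fold change of −0.07 (SE 0.04, edgeR adjusted p = 0.305). Robo2 had 86.4, 107 and 118 CPM in Ethanol animals, against 91.1, 107 and 119 CPM in Vehicle animals, and a log2 fold change of 0.00 (SE 0.04, edgeR adjusted p = 0.982).

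Of the Eph receptors, Epha4 and Ephb2 lay just outside the threshold. Epha4, which binds ephrins of both classes, had 36.1, 41.9 and 51.6 CPM in Ethanol animals, against 41.3, 47.0 and 54.0 CPM in Vehicle animals. Of the Ethanol animals, 6 lay below the lowest Vehicle animal and 2 above the Vehicle median. This gave a log2 fold change of −0.16 (SE 0.06, edgeR adjusted p = 0.0510), lower in 6 of 6 runs. Epha4 passed in 12 of 38 alternatives, including limma-trend (adjusted p = 0.0468) and DESeq2 (adjusted p = 0.0418), with adjusted p between 0.0155 and 0.180 over all of them. It passed without any one of Ethanol X4674, X4681 and X4683 and Vehicle X4695, X4761, X4768 and X4770, with adjusted p between 0.0155 and 0.0461.

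Ephb2, a receptor for the ephrin-B ligands, had 170.4, 196 and 214 CPM in Ethanol animals, against 195, 208 and 228 CPM in Vehicle animals. Again 6 Ethanol animals lay below the lowest Vehicle animal and 2 above the Vehicle median. The log2 fold change was −0.09 (SE 0.03, edgeR adjusted p = 0.0525), lower in 5 of 6 runs. It passed in 15 of 38 alternatives, with adjusted p between 0.0194 and 0.257 over all of them. The highest was without run 5, where the log2 fold change was −0.06. Of the 15, 9 left out a single animal (Ethanol X4568, X4569, X4673, X4681, X4694 and X4766, Vehicle X4571, X4677 and X4695), with adjusted p between 0.0294 and 0.0476.

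The other Eph receptors were not called. Epha7, a receptor for ephrin-A ligands, had a log2 fold change of −0.10 (SE 0.04, edgeR adjusted p = 0.113) and passed without Ethanol X4674 (adjusted p = 0.0439) or X4683 (adjusted p = 0.0471). Epha1 had the lowest fold change of all members, −0.43 (SE 0.16, edgeR adjusted p = 0.0755), on 10 to 32 counts per animal, and was called without Vehicle X4679 (adjusted p = 0.0419) or X4761 (adjusted p = 0.0448). Its exons overlap those of the more abundant Zyx on the opposite strand over 236 bases, and the strand setting of the counting is not given in the sources used here. Ephb1, Ephb3, Ephb4 and Ephb6 had log2 fold changes between 0.00 and 0.02.

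Comparison within runs gave more calls than comparison across all animals. With the 6 runs as a block in the same edgeR fit, 5 members were higher (Plxnc1, Sema3d, Sema3g, Plxna2 and Plxna3) and 6 lower (Sema5b, Efnb1, Ntn3, Epha4, Ephb2 and Sema3f). These are 7.46% and 8.96% of the members, against 11.2% of all genes higher and 7.68% lower in that fit. Epha4 then had an adjusted p of 0.0188, Ephb2 one of 0.0481 and Sema3d one of 0.0155. The within-run difference of mean log2 CPM for Sema3d ranged from 0.08 in run 6 to 0.53 in run 1, and that of Epha4 from −0.23 to −0.11. Ephb2, Sema3f, Sema3g, Plxna2 and Plxna3 each had the opposite sign in 1 of 6 runs.

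**Figure D3:**
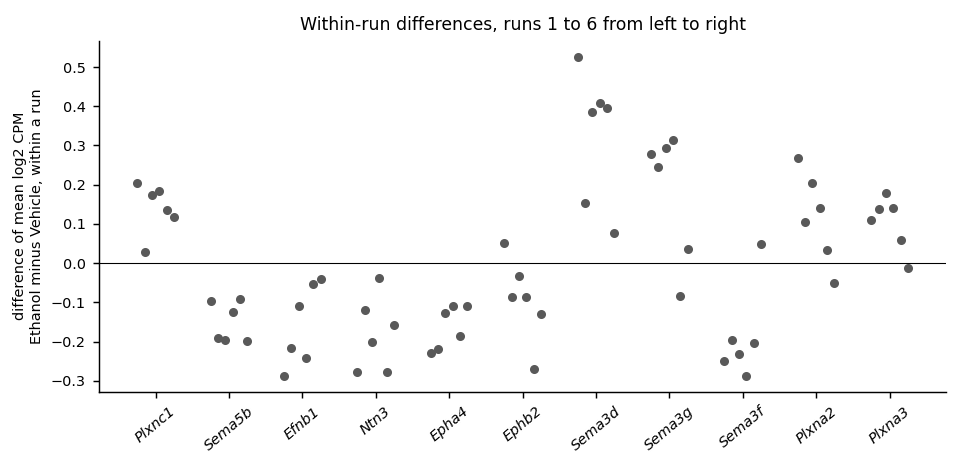
Difference of mean log2 CPM (y axis, Ethanol minus Vehicle, 2 animals of each group) within each of the 6 runs, for the 11 members called with the runs as a block. All 6 points lie above 0 for Plxnc1 and Sema3d and below 0 for Sema5b, Efnb1, Ntn3 and Epha4.

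For several members much of the spread between animals lay between runs. Runs held over 50% of the variance of log2 CPM for 14 of the 67 members (20.9%), beside 9.80% of all genes tested. Unc5b, a netrin receptor also found on endothelium, had the largest share among the members, 76.6%. Its 4 animals lay at 72.4 to 80.3 CPM in run 1, 75.4 to 82.5 in run 2 and 79.9 to 93.7 in run 3, against 106 to 116 in run 4, 89.8 to 101 in run 5 and 90.0 to 145 in run 6. Runs 1 to 3 and runs 4 to 6 thus overlapped only between 89.8 and 93.7 CPM.

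Plxnb3, a plexin expressed in the oligodendrocyte lineage, followed with 71.0%. Next came Sema6c with 69.9%, Sema6a with 67.9%, Ntn1 with 65.9% and Sema4d with 63.5%. Sema6a lay at 298 to 339 CPM over runs 1 to 3 and at 329 to 387 CPM over runs 4 to 6. Plxnb3 lay at 21.3 to 32.6 CPM over runs 1 to 3 and at 29.9 to 40.5 CPM over runs 4 to 6. Sema4d, a ligand of oligodendrocytes that binds Plxnb1, lay at 33.6 to 46.5 CPM over runs 1 to 3 and at 41.4 to 63.9 CPM over runs 4 to 6. The summed level of 10 myelinating oligodendrocyte markers moved with the runs as well, from 546 to 1127 CPM over runs 1 to 3 and from 898 to 1862 CPM over runs 4 to 6.

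Vehicle X4768 had the highest level of all 24 animals for Unc5b (145 CPM), Plxnb3 (40.5 CPM), Sema4d (63.9 CPM) and the myelin markers (1862 CPM). By treatment, these 3 members had log2 fold changes of −0.03, 0.16 and 0.06, none of them called. Sema3f ran the other way, at 14.9 to 21.7 CPM over runs 1 to 3 and 11.3 to 17.8 CPM over runs 4 to 6. These members were singled out after their values were seen, and the part of age or litter in the runs was not tested, because the labels give neither.

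**Figure D4:**
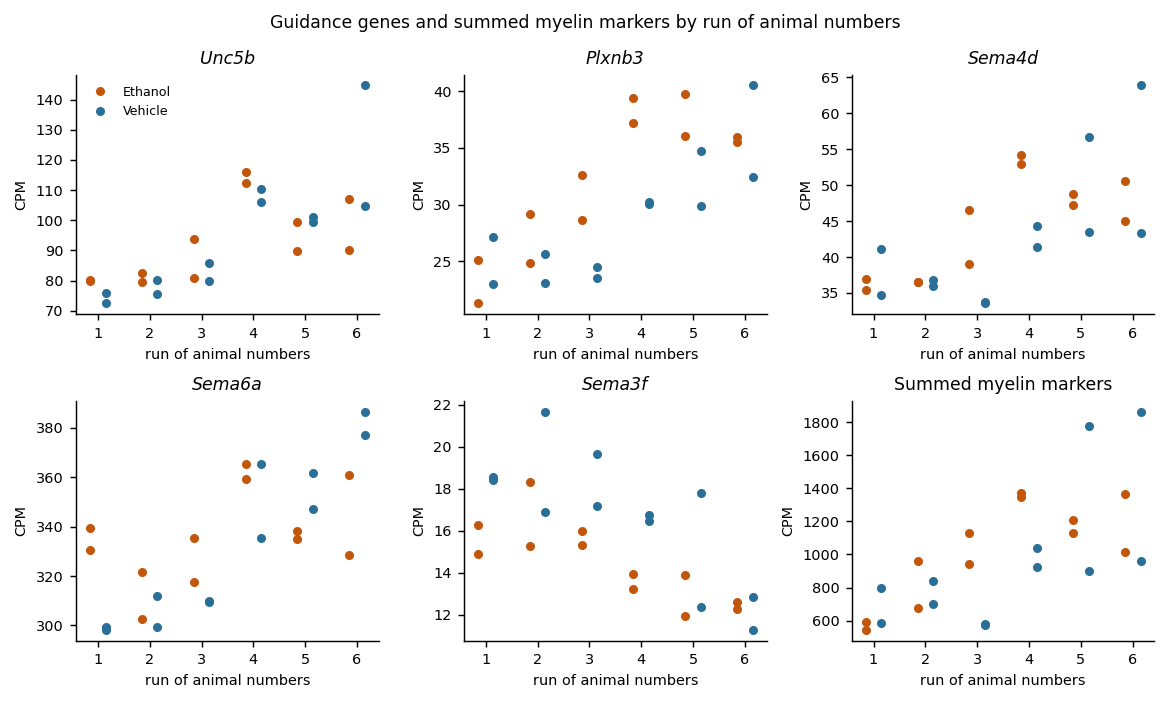
Level in CPM (y axis) of Unc5b, Plxnb3, Sema4d, Sema6a and Sema3f and summed level of the myelinating oligodendrocyte markers in each animal, by run (x axis), Ethanol left and Vehicle right within a run. Unc5b, Plxnb3, Sema4d and Sema6a stand higher in runs 4 to 6, as do the myelin markers, and Sema3f stands lower.

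Sema3b and Sema3c, secreted semaphorins that act through neuropilins, were lowest in the libraries low in the choroid plexus marker Ttr. In the 4 libraries low in Ttr, Sema3b lay at 2.16 to 2.45 CPM, against 4.88 to 17.7 CPM in the other 20 libraries, and Sema3c at 2.01 to 2.66 CPM, against 3.43 to 7.23 CPM. Neither range overlapped with its counterpart, and for no other member did the 4 libraries stand wholly apart. Both groups have 2 such libraries. By treatment, Sema3b had 2.27, 10.6 and 16.9 CPM in Ethanol animals and 2.16, 12.8 and 17.7 CPM in Vehicle animals, with a log2 fold change of −0.19 (SE 0.35, edgeR adjusted p = 0.771). The corresponding change of Sema3c was 0.03 (SE 0.20, edgeR adjusted p = 0.949). The choice of both genes followed from these values.

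**Figure D5:**
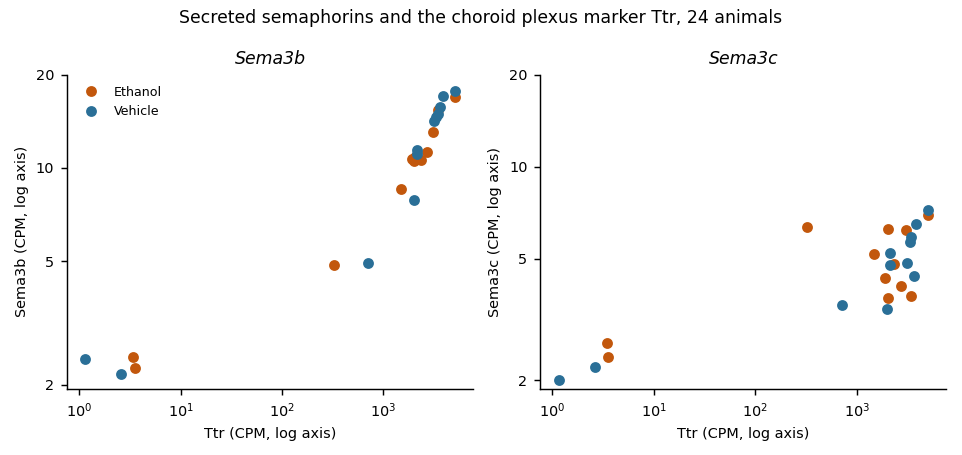
Level of Sema3b and Sema3c (y axes, CPM, log axis) against Ttr (x axes, CPM, log axis) in the 12 Ethanol and 12 Vehicle animals. The 4 libraries with Ttr under 4 CPM hold the lowest levels of both genes, and both treatments occur at either end.

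The wider guidance pathway was followed in 104 further genes, namely co-receptors, other ligands and intracellular mediators. Of these, 6 rose and 15 fell, 5.77% and 14.4%, against 9.07% and 5.80% of all genes tested, with a median log2 fold change of −0.01. The list was measured more tightly than all genes, with a median standard error of 0.036 beside 0.052 and a median level of 95.2 CPM beside 20.8. Its median absolute log2 fold change was 0.054 beside 0.072, and 31.7% beside 28.4% had an unadjusted p under 0.05 in edgeR. It was written with earlier results of these data known. Without the 4 libraries low in Ttr, 3 of its genes were called higher and 8 lower, 2.88% and 7.69%, against 6.79% and 3.44% of all genes. With the runs as a block, 7 were called higher and 18 lower, 6.73% and 17.3%, against 11.2% and 7.68% of all genes. Robo4, the Robo of endothelium, averaged 17.2 ± 1.33 CPM in Ethanol and 20.7 ± 1.13 CPM in Vehicle animals (SD, n = 12 each) and fell by 0.27 on the log2 scale (SE 0.04, edgeR adjusted p = 0.000102), beside the lower endothelial marker sum given above. Among the mediators, Ptk2 (focal adhesion kinase) fell by 0.11 (SE 0.02, edgeR adjusted p = 0.00316), and the adaptor Nck2 fell by 0.14 (SE 0.03, edgeR adjusted p = 0.00382). Its paralog Nck1 rose, with 26.2 ± 1.90 CPM in Ethanol and 22.0 ± 2.14 CPM in Vehicle animals (SD, n = 12 each) and a log2 fold change of 0.25 (SE 0.05, edgeR adjusted p = 0.00101).

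Flrt1 and Flrt3, membrane proteins that bind Unc5 receptors, lay in opposite directions from 0, and whether their changes differ from each other was not tested. Flrt3 rose, with a log2 fold change of 0.27 (SE 0.06, edgeR adjusted p = 0.00299), and Flrt1 fell by 0.35 (SE 0.09, edgeR adjusted p = 0.00622). The level of Flrt1 was low, at a mean of 2.56 CPM in Ethanol and 3.27 CPM in Vehicle animals. Their relative Flrt2 was not called, with a log2 fold change of 0.09 (SE 0.05, edgeR adjusted p = 0.254). Rnd3, a small GTPase without GTP hydrolysis, rose by 0.15 on the log2 scale (SE 0.04, edgeR adjusted p = 0.00548), and Rtn4r, the Nogo receptor, rose by 0.23 (SE 0.06, edgeR adjusted p = 0.0109). The other genes called were Lrig2 and Dpysl2, which were higher, and Neo1, Crmp1, Dpysl5, Rnd1, Arhgef12, Srgap1, Chn1, Kalrn, Ablim1, Cxcl12 and Rtn4, which were lower.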

How the data were processed

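Poly(A) libraries of 24 cerebella were sequenced as read pairs. The authors ran nf-core/rnaseq and deposited gene-level estimated counts. STAR, Salmon, limma and the build GRCm39 are listed, without versions, in the submitters' processing notes. Neither the annotation release nor how strand was handled is given in the sources used here. Of all values, 10.9% were further than 0.01 from a whole number, so the estimated counts were rounded. Each column matched 1 label by animal number. The labels and the paper name different homogenizers and RNA kits.

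Genes passing filterByExpr were scaled by TMM and tested with edgeR 4.0.16 (glmQLFit, robust, glmQLFTest) in R 4.3.3, Ethanol over Vehicle, with Benjamini-Hochberg adjustment over all 17736 genes. CPM are on TMM-scaled library sizes. Standard errors come from the F statistic. Among 276 pairs of libraries the lowest mean chi-square per gene was 4.99, where sampling noise gives 1, so no library was a copy of another. Nothing in the labels tells litters apart. The paper took several animals from each litter and used both ages. The fit treated all animals as independent, so its p-values measure the spread between these animals and allow for neither litter nor age. CPM per kilobase used merged exons of GENCODE vM21 (GRCm38), another build than the files', so no coordinates are given.

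The genes named were every member past the threshold, the member with the smallest p in each family without one, 15 members known from cerebellar development (Unc5c, Dcc, Ntn1, Plxnb2, Plxna2, Sema6a, Epha4, Ephb2, Efnb1, Efnb2, Nrp1, Sema3a, Robo1, Robo2 and Slit2), members too low to test, and in each direction up to 4 pathway genes of smallest p. Others were named after their values were seen. The members, the pathway list and the marker lists were chosen with earlier results of these data known.

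The 38 alternatives were limma-trend (limma 3.58.1), DESeq2 1.42.0, RLE and upper-quartile scaling, no filter, a stricter filter (1 CPM in 12 libraries), runs of 4 neighbouring animal numbers as a block, all but the libraries with Ttr under 4 log2 CPM, and all but each animal or run in turn. Tables and plots used Python 3.11.15, pandas 2.3.3, numpy 2.4.6, scipy 1.17.1 and matplotlib 3.10.9.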

Additional observations from a re-analysis of the deposited data

How the results depend on the processing

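The number of members called higher, 1 in the analysis reported, was 2 by DESeq2, 5 with the runs as a block, 2 without run 2, 2 without run 5 and 4 without run 6, and 1 to 5 with single animals left out. The number called lower, 3 in the analysis reported, was 5 by limma-trend, 5 by DESeq2, 5 with upper-quartile scaling, 5 with the stricter filter and 6 with the runs as a block, 4 without the libraries low in Ttr, 2 with no filter, 2 without any one of runs 1 to 5 and 4 without run 6, and 3 to 5 with single animals left out. Over all genes, 1608 were called higher and 1028 lower in the analysis reported, 1572 and 1040 by limma-trend, and 1802 and 1199 by DESeq2. With upper-quartile scaling they were 1373 and 1396, with the stricter filter 1555 and 1044, and with no filter 1341 and 662. With the runs as a block they were 1982 and 1363, and without the libraries low in Ttr 1206 and 612. Counts over all genes are not given here for fits without a run or a single animal. Of the other guidance pathway genes, 6 were higher and 15 lower in the analysis reported. With the runs as a block 7 were higher and 18 lower. Without the libraries low in Ttr 3 were higher and 8 lower, and 7, 8, 9, 9 and 9 were lower without runs 1, 2, 4, 5 and 6, where 20 animals remain. Leaving out single animals gave 4 to 7 higher and 10 to 17 lower. No called gene changed direction under any of the 38 alternatives. Of the 4 members called, Plxnc1 and Sema5b were called in 38, Efnb1 in 35 and Ntn3 in 33; the causes of the differences in counts were not tested. No block by animal number could be fitted, since the groups share none; the block by run is the within-set comparison. Age, sex and litter are not in the labels, so treatment was compared over pooled animals. Counts of 10 to 32 per animal limit Epha1, and 0 to 16 limit Ntn5. Whole cerebellum gives 1 level per gene over all cell types.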
